A study of Mus musculus with 2 samples.

Results

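Gene deserts are long stretches of a genome that hold no protein-coding gene. A peak of histone H4 acetylated at lysine 16 (H4K16ac) was counted as a desert peak if its summit lay outside every protein-coding gene of RefSeq and more than 100 kb from the nearest end of such a gene, and if the −log10 of its q-value was under 10. This rule selected 4734 of 58229 peaks in the list labelled WT and 5078 of 55149 in the list labelled KAT8-cKO, together 9812 of 113378. Position and the upper limit on q chose these peaks. The limit also caps their fold and height, so strength is described only below it. Their density per megabase (Mb), overlap and chromosome were not used to choose them.

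The lists came from CUT&Tag, in which an antibody guides a transposase that cuts and tags the DNA around a modified histone. The cells were mouse primary macrophages differentiated from bone marrow with 20 ng/ml of M-CSF, a macrophage growth factor, and both groups were stimulated for 2 h with 100 ng/ml of R848, a small molecule that activates Toll-like receptor 7. The WT library carried the normal gene for KAT8 and the KAT8-cKO library came from cells deficient in KAT8, with 1 library per group and no unstimulated library. The sources used here do not say what deletes the gene, how complete the deletion was, the sex and age of the mice, or whether animals were pooled. With 1 library per group there was no replicate check and no test between the genotypes, and all 95% intervals below cover counting error only. As a check of the labelled cell type, 5 of 6 macrophage marker genes (Spi1, Csf1r, Adgre1, Cd68 and Mertk, not Itgam) had a WT peak within 1 kb of a gene end, and 4 of 6 had one in the KAT8-cKO list (Spi1, Itgam, Cd68 and Mertk), beside 46.8% and 43.3% of all protein-coding genes. With a q-value under 0.05 the markers numbered 2 of 6 (Cd68 and Mertk) and 3 of 6 (Spi1, Itgam and Mertk), beside 36.8% and 31.3% of all genes. Of 9 T cell, B cell and epithelial markers only Cd3d had a peak, in both lists, at a −log10 q of 1.65 in WT where Cd68 had 1.66. These few peaks are a weak check of the cell type.

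H4K16ac loosens the packing of nucleosomes and is found at active gene starts, gene bodies and enhancers. KAT8, also called MOF, is the acetyltransferase that places most of it in mammalian cells. Gene deserts are poor in active chromatin, yet many flank genes of development and carry distant enhancers, long noncoding RNA (lncRNA) genes and repeated DNA. By the rule used here, lncRNA genes, pseudogenes and immunoglobulin or T cell receptor segments can all lie inside a desert, since none of them is annotated as protein-coding.

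Promoter sequences of lncRNA genes show what some of the desert peaks cover. RefSeq windows of 300 bases (assembly GRCm38.p6, from 250 bases before to 50 after a transcript's start) were available for 2076 starts of 1756 noncoding genes within deserts. Desert peaks of the WT list overlapped 21 of these windows, those of the KAT8-cKO list 23, and both lists 9. Of those 9 windows, 4 are printed 5′ to 3′ on the gene's strand, with every CG dinucleotide (CpG) in capitals, because they fall into 2 kinds of sequence. They were chosen after their values were seen. They are Dubr (chr16:50732724-50733023, minus strand), 2210408F21Rik (chr6:31220101-31220400, plus strand), Gm46264 (chr11:117463657-117463956, minus strand) and Gm33368 (chr8:120874548-120874847, minus strand), all lncRNA genes.
Dubr: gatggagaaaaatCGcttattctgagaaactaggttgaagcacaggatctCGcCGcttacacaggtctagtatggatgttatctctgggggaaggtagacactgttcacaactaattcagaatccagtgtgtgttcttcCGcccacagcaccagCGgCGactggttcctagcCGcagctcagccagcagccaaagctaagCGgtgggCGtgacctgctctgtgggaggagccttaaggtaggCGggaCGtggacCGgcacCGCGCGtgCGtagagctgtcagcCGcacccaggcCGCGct
2210408F21Rik: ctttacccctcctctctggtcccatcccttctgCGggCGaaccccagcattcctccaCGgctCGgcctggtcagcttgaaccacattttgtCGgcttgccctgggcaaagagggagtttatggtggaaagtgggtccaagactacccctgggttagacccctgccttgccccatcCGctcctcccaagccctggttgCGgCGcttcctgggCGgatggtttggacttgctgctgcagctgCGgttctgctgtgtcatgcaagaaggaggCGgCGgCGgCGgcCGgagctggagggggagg
Gm46264: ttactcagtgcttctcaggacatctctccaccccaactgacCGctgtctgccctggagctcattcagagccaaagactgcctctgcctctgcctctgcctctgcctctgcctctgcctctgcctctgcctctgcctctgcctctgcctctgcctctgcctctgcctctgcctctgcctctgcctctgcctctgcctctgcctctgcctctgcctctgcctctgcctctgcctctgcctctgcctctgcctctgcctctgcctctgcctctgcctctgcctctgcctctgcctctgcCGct
Gm33368: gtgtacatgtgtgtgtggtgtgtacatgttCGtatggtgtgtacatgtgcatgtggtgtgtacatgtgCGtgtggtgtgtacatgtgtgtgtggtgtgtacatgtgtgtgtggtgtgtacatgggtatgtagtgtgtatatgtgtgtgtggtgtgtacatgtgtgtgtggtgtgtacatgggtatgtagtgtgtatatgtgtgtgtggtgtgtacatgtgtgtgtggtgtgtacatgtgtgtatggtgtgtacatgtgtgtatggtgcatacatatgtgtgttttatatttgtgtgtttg
The first pair are rich in CpG, with 19 sites in the Dubr window and 15 in the 2210408F21Rik window. At Dubr, between Ccdc54 and Cblb, the fold over the peak caller's background was 5.86 in WT and 3.42 in KAT8-cKO. At 2210408F21Rik, between Klf14 and Mkln1, it was 2.96 in WT and 2.99 in KAT8-cKO. The second pair hold only 2 CpG sites each and consist largely of short repeats. The Gm46264 window, between Septin9 and Tnrc6c, has a stretch of 215 bases in which each base equals the base 6 places before it, a tandem repeat of ctctgc. Its fold was 5.62 in WT and 3.63 in KAT8-cKO. The Gm33368 window, between Foxf1 and Irf8, the gene of a transcription factor that macrophages need, has such a stretch of 35 bases with a unit of 19. Its fold was 3.30 in WT and 4.17 in KAT8-cKO.

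Stretches of at least 30 such bases, with a unit of at most 30, occurred in 2 of the 9 windows met by both lists and in none of the 26 windows met by a single list. They occurred in 1.13% of the 2041 windows met by neither list and in 0.521% of all 32851 windows of the table. Repeats with longer units were not searched for. The windows of Gm36734 and Gm5636, both among the 9, hold longer sequences that recur within the window. Reads from repeated DNA can be placed wrongly, and how such reads were treated is not stated in the sources used here. The part of repeats in these peaks was not tested. The search for CG, which reads the same on both strands, found a median of 15 sites in the 9 windows met by both lists (range 1 to 19). The median was 4 in the 12 windows met by the WT list alone, 5.5 in the 14 met by the KAT8-cKO list alone and 3 in the windows met by neither. At least 10 CpG sites were present in 5 of the 9 windows met by both lists, in 5.49% of windows met by neither and in 43.5% of all windows of the table, which includes protein-coding genes. Further windows met by both lists belong to Gm36734, LOC115490388, Gm5636 and Gm40899, with folds from 2.67 to 4.03 in WT and 2.78 to 3.40 in KAT8-cKO.

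The highest folds in windows counted for KAT8-cKO alone were 4.27 at Gm46483, between Klf12 and Prr30, and 3.84 at Gm41987, between Gm14410 and Zfp970. The KAT8-cKO list alone also met the start of Firre, an lncRNA gene on the X chromosome known to escape X inactivation, at a fold of 2.78. It alone also met Mir205hg, the host gene of a microRNA, at 2.99, and the window of 9530059O14Rik, which has the most CpG sites of these windows (38), at 2.56. These peaks were low, with a −log10 q of 1.01 at Firre, 1.41 at Mir205hg and 0.663 at 9530059O14Rik. Their heights were 12, 13 and 11 overlapping fragments. Among KAT8-cKO desert peaks of 11, 12 and 13 fragments, 13.8%, 19.5% and 21.5% were overlapped by a WT peak. Absence from the WT list was thus usual at these heights, and a difference between the genotypes at these starts was not tested. The highest fold in a window counted for WT alone was 4.48 at Gm26901, with 18 CpG sites. There the KAT8-cKO list also holds a peak, with a fold of 5.32, which the limit of 10 left out at a −log10 q of 10.1. None of the other 11 windows counted for WT alone was overlapped by a KAT8-cKO peak of any strength, and none of the 14 counted for KAT8-cKO alone by a WT peak. The sorting had already set aside windows met by desert peaks of both lists, so only peaks outside the rule could change this. Of all desert peaks, 28.9% in WT and 27.2% in KAT8-cKO were overlapped by a peak of the other list.

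Desert peaks were sparse. Deserts made up 28.6% of the span between the outermost peaks of each chromosome (760 Mb), and held 8.30% of WT peaks and 9.33% of KAT8-cKO peaks with a −log10 q under 10. The density was 6.23 peaks per Mb in WT (95% interval 6.05 to 6.41) and 6.68 in KAT8-cKO (6.50 to 6.86). Outside deserts it was 27.5 and 25.9 peaks per Mb. The ratio of desert to other density was therefore 0.226 in WT (0.220 to 0.233) and 0.257 in KAT8-cKO (0.250 to 0.265). Density declined stepwise with distance in both lists, from 124 and 119 peaks per Mb within 1 kb of a gene end to 21.4 and 19.4 in intergenic DNA 1 to 50 kb away and 11.3 and 11.9 at 50 to 100 kb.

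**Figure D1:**
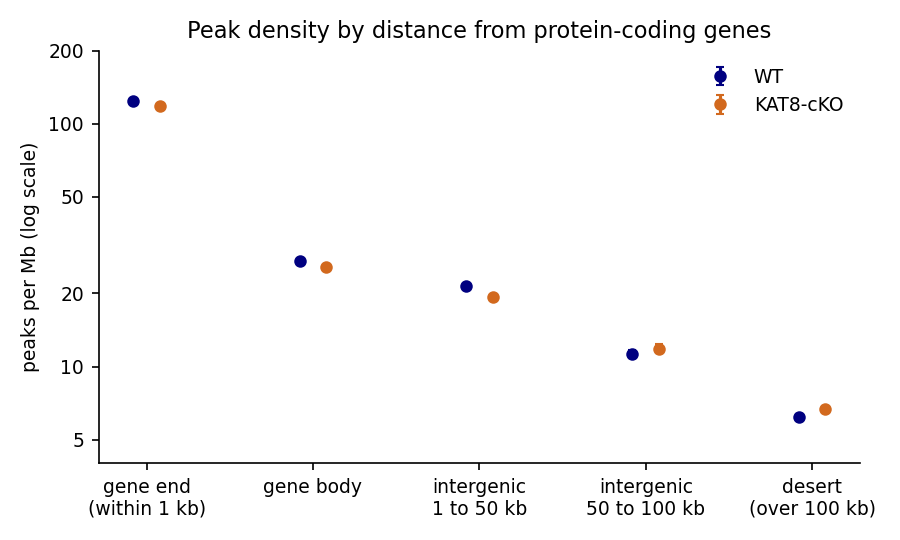
Peaks per Mb (log scale) in 5 classes of position relative to protein-coding genes, for the WT list (blue) and the KAT8-cKO list (orange), with 95% counting intervals that are mostly smaller than the points. Both lists are highest at gene ends (124 and 119 per Mb) and lowest in deserts (6.23 and 6.68), and KAT8-cKO is above WT only in the 2 classes farthest from genes.

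The decline went on inside deserts and then levelled off. At 100 to 200 kb from the nearest gene there were 8.57 peaks per Mb in WT and 9.39 in KAT8-cKO. At 200 to 500 kb there were 5.94 and 6.48, at 500 to 1000 kb 4.02 and 3.94, and beyond 1000 kb 4.12 and 4.05. The intervals of the last pair of classes overlapped. The farthest peaks of both lists lay in the desert between Celf4 and Pik3c3, 2237 kb (WT) and 2255 kb (KAT8-cKO) from a gene, with folds of 2.44 and 2.56. Small deserts were denser than large ones. Deserts of at most 0.25 Mb held 11.0 and 11.7 peaks per Mb and those over 2 Mb held 4.15 in both lists. The order held at equal distance: at 100 to 200 kb from a gene, in deserts with a gene on both sides, density was 10.7 (10.01 to 11.4) and 11.3 (10.6 to 12.1) in deserts of at most 0.25 Mb and 4.61 (3.51 to 5.95) and 5.39 (4.19 to 6.82) in those over 2 Mb.

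The number of desert peaks was 1.07 times higher in KAT8-cKO than in WT (1.03 to 1.12), while the number of peaks outside deserts was 0.943 times that of WT (0.932 to 0.955). With deserts set by genes of every type, noncoding ones included, 937 WT and 946 KAT8-cKO peaks lay in deserts, a ratio of 1.01 (0.922 to 1.11). Among peaks with a q-value under 0.05 the desert count was 2012 in WT and 2417 in KAT8-cKO, a ratio of 1.20 (1.13 to 1.27), beside 0.944 outside deserts. Taking the strongest 20000 peaks of each list before the limit on q, 1377 WT and 1689 KAT8-cKO peaks lay in deserts, 7.32% and 8.77% of those under the limit. At a −log10 q of at least 5 the desert counts were 149 and 157, a ratio of 1.05 (0.842 to 1.32), while gene ends had 1688 and 910 such peaks, a ratio of 0.539. Counts past a threshold move with sequencing depth and background, so they give no change at any single site. The background that the peak caller assumed was higher in KAT8-cKO (next paragraph), and its part in these counts was not tested.

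Most desert peaks were low. The deposited folds and p-values correspond to whole heights, the number of overlapping fragments at the summit, for all 9812 desert peaks when a Poisson model of the peak caller's kind is solved for the height and the background (within 0.01 of the deposited −log10 p). The lowest background in these peaks was 3.09 fragments in WT and 3.68 in KAT8-cKO, a ratio of 1.19. It applied to 80.1% of WT and 78.2% of KAT8-cKO desert peaks, against 17.3% and 26.4% of peaks at gene ends, where the caller used a higher local background more often. At that floor the lowest peak called was 8 fragments high in WT and 9 in KAT8-cKO, and a q-value under 0.05 needed 12 and 13. Median heights of all desert peaks were 11 fragments in WT (middle 50% of peaks 10 to 13) and 13 in KAT8-cKO (11 to 14), and the highest were 67 and 65. Low heights were not particular to deserts. Under the same limit on q, medians were 12 and 13 in gene bodies and 15 in both lists at gene ends. The height needed for a call differed between the lists, so heights are not compared further between them.

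**Figure D2:**
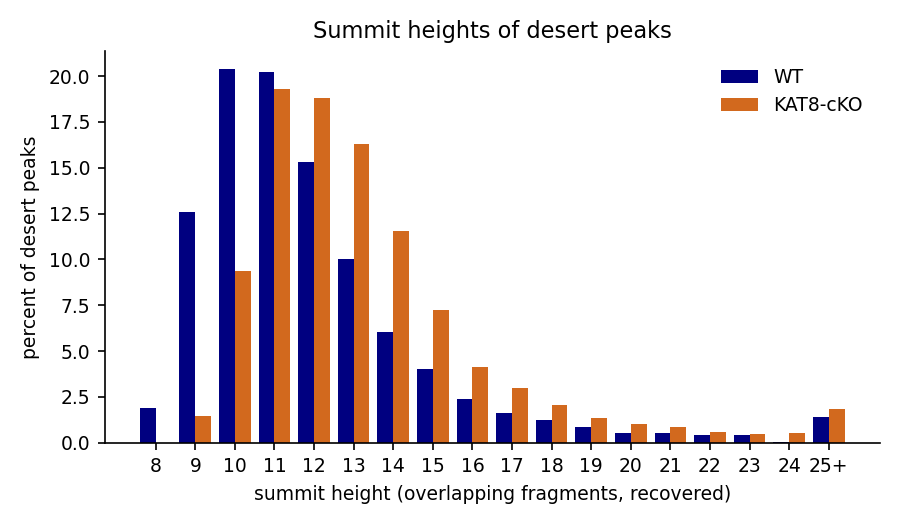
Percent of desert peaks (vertical axis) at each recovered summit height in overlapping fragments (horizontal axis, 25+ pools the rest), WT in blue and KAT8-cKO in orange. The bars start at the lowest height that could be called, 8 fragments in WT and 9 in KAT8-cKO, and medians are 11 and 13.

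In fold, desert peaks had a median of 2.93 in WT (middle 50% of peaks 2.69 to 3.24, maximum 5.86) and 2.78 in KAT8-cKO (2.56 to 3.20, maximum 5.55). Peaks in gene bodies had 2.78 and 2.75, and peaks at gene ends 3.18 and 2.99. The lowest background applied to only 32.2% and 37.9% of gene body peaks. Folds of these classes thus rest on unlike backgrounds and do not rank the classes by height. A q-value under 0.05 was given to 42.5% of WT desert peaks (41.1 to 43.9), beside 45.8% of all WT peaks under the limit, and to 47.6% of KAT8-cKO desert peaks (46.2 to 49.0), beside 46.2% of all. In WT the interval lies below that of peaks outside deserts (46.1%, 45.6 to 46.5), and in KAT8-cKO it overlaps theirs (46.1%, 45.7 to 46.5). Of WT peaks at gene ends 69.3% passed, and of KAT8-cKO peaks there 64.6%. Peaks were narrow, with a median of 272 bp in WT and 267 bp in KAT8-cKO, and 54 and 48 desert peaks were 1 kb or wider.

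The limit on q sets the highest fold that a desert peak can have, and it is reached on the background floor. In WT, 4 peaks tied at a fold of 5.86 and a height of 23 fragments. Among them is the peak at the start of Dubr described above. Another (chr12:67950518-67950952) lay between Mdga2 and Rps29, 728 kb from the nearest gene, and its KAT8-cKO partner had a fold of 3.63. A further peak lay in the lncRNA gene Gm30821 between Mc2r and Tcf4, with a KAT8-cKO partner at 9.82, beyond the limit on q. These 3 were thus matched in the other library, at folds from 3.42 to 9.82.

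In KAT8-cKO, 4 peaks tied at a fold of 5.55 and a height of 25 fragments. The peak between Kif20b and Htr7 (chr19:35276317-35276612) had no WT partner. The other 3 were overlapped by WT peaks: between Tnc and Pappa (chr4:64497752-64497998) with a WT fold of 5.62, in the Mdga2 to Rps29 desert again (chr12:67555699-67556174) with 5.13, and between Impg1 and Htr1b, a serotonin receptor gene (chr9:81224989-81225295), with 4.64. The Tnc to Pappa pair nearly coincided, with starts 64497750 and 64497752 and ends 64498016 and 64497998. Other pairs with high folds in both lists lay between Htr1a and Ipo11 (5.62 in WT and 5.12 in KAT8-cKO) and between Lcorl and Slit2 (5.37 and 5.34).

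Among the strongest unshared WT peaks were those between St8sia4 and Slco4c1, at a fold of 5.62 and 22 fragments, and between Slc22a12 and Rps6ka4, at 5.08. The strongest unshared KAT8-cKO peaks were the one between Kif20b and Htr7 and those between Pik3r1 and Cd180, the gene of a Toll-like receptor homologue, and between Grm7 and Lmcd1, both at 5.12 and 23 fragments. These 5 peaks were chosen for having no overlap with the other list, and each stood well above its floor.

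The limits of the rule cut through a continuous range. In each list 142 peaks in deserts had a −log10 q of at least 10 and were left out, and 141 of the 142 were shared in each (99.3%, 96.1 to 99.9). The WT peak just inside the limit had a −log10 q of 9.27 and a fold of 3.58 (X chromosome, beside Asmt), and the peak just outside it 10.01 and 5.10 (between Ttc32 and Osr1). In KAT8-cKO they had 9.73 and 4.19, in Snhg14, the lncRNA gene of the imprinted region between Ube3a and Snurf, and 10.03 and 5.77, between Cdh2 and Dsc3. By distance, the WT peaks nearest to the limit had folds of 2.93 inside (between Slc10a2 and Efnb2) and 2.203 outside (between Ptch1 and Ercc6l2), and the KAT8-cKO peaks 2.99 (between Zfhx3 and Pmfbp1) and 2.24 (between Map3k7 and Bach2).

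Of WT desert peaks, 1370 (28.9%, 27.7 to 30.2) were overlapped by at least 1 bp of a KAT8-cKO peak, beside 31.8% of all WT peaks under the limit. Of KAT8-cKO desert peaks, 1382 (27.2%, 26.0 to 28.5) were overlapped by a WT peak, beside 34.8% of all. Both shares are below those of all peaks, among which gene ends stand apart with 60.2% and 68.9% shared. Gene body peaks had 25.7% and 27.7%, and intergenic peaks 1 to 50 kb from a gene 25.1% and 28.1%. When each desert peak was moved by 5 to 50 kb in steps of 5 kb, both ways, and kept where its summit stayed in a desert, the mean over the 20 shifts was 1.10% met in WT (lowest 0.676, highest 1.79) and 1.02% in KAT8-cKO (0.620 to 1.71). The unmoved peaks were thus overlapped 26.4 times as often in WT and 26.8 times in KAT8-cKO. Shifts of 200 kb to 2 Mb met 0.523% and 0.533%. Requiring an overlap of at least 50% of both peaks lowered the shared portion of unmoved peaks to 18.4% and 17.1%, and among desert peaks with a q-value under 0.05 it was 44.3% and 39.6%. The shifts describe how often a peak is met at the local density and are no test.

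**Figure D3:**
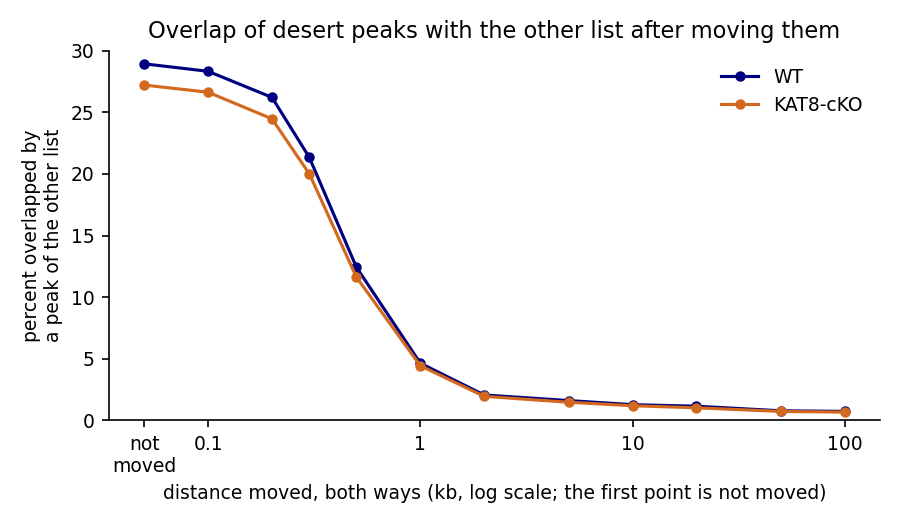
Percent of desert peaks overlapped by a peak of the other list (vertical axis) when not moved and after moving them by 0.1 to 100 kb in both directions (horizontal axis, log scale), WT in blue and KAT8-cKO in orange. The share drops from 28.9% and 27.2% to under 5% at 1 kb and to 0.726% and 0.665% at 100 kb.

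The overlap was local. A move of 100 bp left 28.3% of WT desert peaks overlapped and 26.6% of KAT8-cKO desert peaks, a move of 500 bp 12.4% and 11.6%, a move of 1 kb 4.64% and 4.43%, and a move of 2 kb 2.06% and 1.95%. From 2 kb onwards the share declined slowly, to 1.27% and 1.19% at 10 kb and 0.726% and 0.665% at 100 kb. The median gap from a desert peak to the nearest peak of its own list, of any strength, was 27.7 kb in WT and 25.3 kb in KAT8-cKO, and 20.7% and 21.2% had one within 5 kb. In intergenic DNA 1 to 50 kb from a gene 35.0% and 33.6% did.

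Sharing followed strength. Among WT desert peaks it was 14.6% for a −log10 q under 0.5, 22.5% at 1 to 1.5, 41.1% at 2 to 3, 65.7% at 3 to 5 and 91.3% (136 of 149) at 5 to 10. In KAT8-cKO the same classes had 11.3%, 21.0%, 43.6%, 65.6% and 91.7% (144 of 157). By height, the share in WT went from 11.0% at 8 fragments to 81.8% at 17, and in KAT8-cKO from 2.67% at 9 fragments to 77.4% at 20. Shared desert peaks were also wider, with a median of 362 bp in both lists against 250 bp (WT) and 247 bp (KAT8-cKO) for unshared ones; a wider peak is met more easily.

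**Figure D4:**
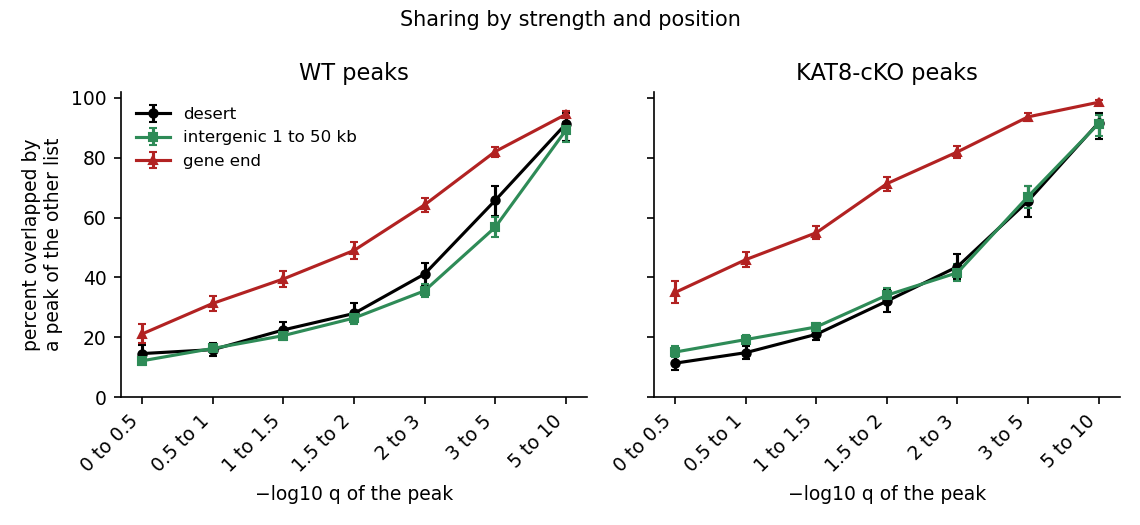
Percent of peaks overlapped by a peak of the other list (vertical axis) in 7 classes of −log10 q (horizontal axis), for desert peaks (black circles), intergenic peaks 1 to 50 kb from a gene (green squares) and gene end peaks (red triangles), with 95% counting intervals, WT peaks on the left and KAT8-cKO peaks on the right. Desert peaks climb from 14.6% and 11.3% to 91.3% and 91.7% close to the nearer intergenic peaks, and gene ends lie above both in every class.

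At equal strength, desert peaks stood near the other intergenic and gene body peaks and below the peaks at gene ends. With each class weighted to the strength mix of desert peaks, the WT shares were 28.9% in deserts, 28.2% at 50 to 100 kb, 26.4% at 1 to 50 kb, 27.2% in gene bodies and 45.1% at gene ends. In KAT8-cKO they were 27.2%, 27.1%, 29.5%, 29.5% and 59.3%. Within deserts the share was 27.9% in WT and 25.2% in KAT8-cKO at 100 to 200 kb from a gene and 31.8% and 32.4% beyond 1000 kb. Peaks within 10 kb of one of the strong peaks left out by the limit were few, 60 in WT and 64 in KAT8-cKO, and 68.3% and 62.5% of them were shared. Without them 28.4% and 26.8% of desert peaks were shared.

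Shared desert peaks formed 1322 distinct pairs of peaks that both met the rule. Their summits lay a median of 111 bp apart, and 620 pairs (46.9%) had summits within 100 bp. The median ratio of KAT8-cKO to WT fold was 0.972 (middle 50% of pairs 0.849 to 1.12), and 725 pairs (54.8%) had the lower fold in KAT8-cKO. Counting every WT desert peak with a KAT8-cKO partner under the limit, wherever the partner's summit lies, 1345 had a median ratio of 0.975, beside 0.964 for peaks in gene bodies and 0.900 for peaks at gene ends, 67.8% of which were lower in KAT8-cKO. A fold is relative to a background that was 1.19 times higher in KAT8-cKO deserts, so these ratios place classes side by side and do not give an amount of H4K16ac lost or gained.

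Desert peaks were found on every chromosome. Among the 19 autosomes density ranged in WT from 4.84 peaks per Mb on chromosome 19 to 9.22 on chromosome 7, and in KAT8-cKO from 4.75 on chromosome 10 to 10.6 on chromosome 7. KAT8-cKO had more desert peaks than WT on 17 of 19. The exceptions were chromosome 10 (187 in WT and 161 in KAT8-cKO) and chromosome 17 (141 and 122), both with intervals of the ratio that include equality. The highest ratios were 1.33 on chromosome 2 (229 and 304; interval 1.12 to 1.58), 1.33 on chromosome 11 (146 and 194; 1.07 to 1.65) and 1.24 on chromosome 12 (304 and 377; 1.07 to 1.44). The shared portion ranged from 25.1% (chromosome 10) to 36.8% (chromosome 16) in WT and from 19.6% (chromosome 11) to 34.4% (chromosome 17) in KAT8-cKO.

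**Figure D5:**
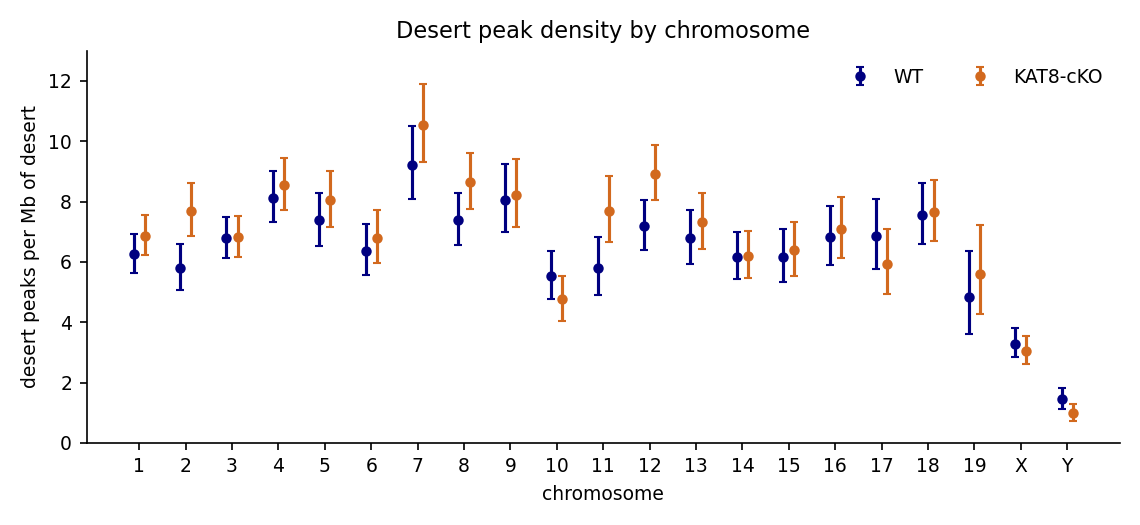
Desert peaks per Mb of desert (vertical axis) on each chromosome (horizontal axis), WT in blue and KAT8-cKO in orange, with 95% counting intervals. Autosomes lie between 4.75 and 10.6 per Mb, the X chromosome at 3.29 and 3.06 and the Y chromosome at 1.44 and 0.973.

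The X chromosome had 183 desert peaks in WT and 170 in KAT8-cKO, or 3.29 and 3.06 per Mb against 6.82 and 7.40 on autosomes. The ratio of X to autosomes was 0.483 in WT (0.416 to 0.560) and 0.413 in KAT8-cKO (0.355 to 0.482). Outside deserts the X was depleted further, with ratios of 0.171 and 0.136, but the classes differed. Ratios were 0.103 and 0.0741 in gene bodies and 0.181 and 0.165 at 1 to 50 kb. They were nearer to those of deserts at 50 to 100 kb (0.304 and 0.271) and at gene ends (0.359 and 0.235). Desert peaks made up a larger portion of the peaks on the X, 24.4% in WT and 28.6% in KAT8-cKO, than on autosomes, 7.99% and 9.06%. Deserts also covered more of the X, 33.2% of its span against 27.4% on autosomes. Sharing on the X was 39.9% (33.1 to 47.1) in WT and 41.2% (34.1 to 48.7) in KAT8-cKO, above the 28.7% and 26.8% of autosomal desert peaks. Desert peaks on the X also more often had a q-value under 0.05, 49.7% and 53.5% against 42.3% and 47.5% on autosomes. A single X desert, Zxdb to Spin4, held 12 WT and 13 KAT8-cKO peaks, with 11 of the WT peaks shared. The part of strength and of this desert in the sharing was not tested. The Y chromosome, much of which is repeated sequence, had 68 and 46 desert peaks over 47.3 Mb of desert, of which 16.2% and 19.6% were shared. The number of X copies in these cells is not stated, and its part in the depletion was not tested.

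There were 1689 deserts with a median size of 215 kb. Of these, 434 held no peak of either list, but only 6 of the 460 deserts of at least 500 kb were empty. The largest desert, 4.34 Mb between the protocadherin genes Pcdh20 and Pcdh9 on chromosome 14, held 9 WT and 8 KAT8-cKO peaks, with 1 shared. Next in size were Celf4 to Pik3c3 (26 and 22 peaks, 8 shared), Olfm4 to Pcdh17 (18 and 14, 2 shared), Cntnap5b to Cdh20 (24 and 25, with 14 WT peaks shared) and Tenm3 to Aga (11 and 16, 5 shared). Shared counts thus differed among large deserts of like size, but the counts are small and a difference beyond counting error was not tested.

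The 5 densest deserts of at least 500 kb held 68.5 to 115 peaks per Mb over both lists, while 90% of such deserts held at most 20.1. Obox7 to Obox2 on chromosome 7, within a family of homeobox genes of the oocyte, held 28 WT and 32 KAT8-cKO peaks over 0.523 Mb (10 shared in each). Mn1 to Cryba4 held 25 and 30, Nphp4 to Ajap1 24 and 28, and Matn1 to Ptpru 24 and 18. At the other end, 3 deserts of the Y chromosome held none in either list. Among 112 deserts with at least 20 peaks, the KAT8-cKO part of the peaks had a median of 53.8%. It ranged from 21.7% between Ythdf3 and Cypt12 (18 WT and 5 KAT8-cKO peaks) to 75.8%.

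That highest value belongs to the desert between Cdh26 and 4930591A17Rik on chromosome 2, with 15 WT and 47 KAT8-cKO peaks over 0.728 Mb, of which 4 in each list were shared. The KAT8-cKO peaks of this desert had a median fold of 2.78 (2.89 in WT) and a median height of 12 fragments (11 in WT), and 19 of 47 had a q-value under 0.05 (5 of 15 in WT). Without this desert chromosome 2 had 214 and 257 peaks, a ratio of 1.20 (1.00 to 1.44), and all deserts together a ratio of 1.07 (1.03 to 1.11). The excess on chromosome 2 thus rested partly on a single desert, while that over all deserts was little changed without it.

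Deserts were grouped by the genes on their flanks. Deserts beside macrophage and inflammatory regulators (39 deserts, 33 of the 76 listed genes) held 7.32 WT and 6.97 KAT8-cKO peaks per Mb. This was 1.18 times (1.01 to 1.38) and 1.04 times (0.892 to 1.22) the density of the other deserts. Examples are Id2 to Rnf144a (13 and 20 peaks, 6 shared), Zeb2 to Acvr2a (12 and 13, 2 shared) and Myc to Gsdmc (8 and 11, 2 shared). Id2 encodes an inhibitor of helix-loop-helix factors and Zeb2 a zinc finger repressor. Deserts beside adhesion and synapse genes (144 deserts, 103 of 234 genes) were sparser, with 4.34 and 4.62 peaks per Mb, 0.641 and 0.635 times the others. They were also larger, with a median of 743 kb.

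Deserts beside developmental transcription factors (98 deserts, 82 of 211 genes) held 7.84 WT and 10.4 KAT8-cKO peaks per Mb (370 and 493 peaks). This was 1.28 times (1.15 to 1.42) and 1.62 times (1.48 to 1.78) the others. Examples are Sall3 to Galr1 (17 and 29), Med13l to Tbx3, beside a limb and heart regulator (18 and 26), and Zfp64 to Tshz2 (11 and 18). In these deserts 27.0% of WT and 20.9% of KAT8-cKO peaks were shared. Deserts beside olfactory and vomeronasal receptors were few and small (22 deserts with a median of 51.4 kb) and held 45 and 51 peaks. Of these, 28 and 35 lay between the start of chromosome 16 and Olfr161, where 21 WT peaks were shared, so this group rests on 1 chromosome end.

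Size entered these contrasts. Among deserts over 1 Mb only, density was 4.45 and 4.50 peaks per Mb in all of them and 4.78 and 5.70 beside macrophage regulators. It was 4.15 and 3.97 beside adhesion and synapse genes and 5.11 and 6.61 beside developmental transcription factors. The order of these 3 lists was the same as over all sizes in both libraries, with a narrower spread. Each WT interval overlapped that of all large deserts, while in KAT8-cKO the interval beside developmental transcription factors (5.50 to 7.89) lay above that of all large deserts (4.29 to 4.72). The part of desert size in the contrasts over all sizes was not separated further. Deserts at chromosome ends were few (11, with 1.93 Mb) and dense, with 39.4 and 44.1 peaks per Mb. Their outer limit was set at the outermost peak of either list, so empty sequence beyond it was not counted. This can raise their density, by an amount that was not tested.

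Noncoding genes drew more than their portion of desert peaks. Summits of 688 WT and 721 KAT8-cKO peaks lay in lncRNA genes, 14.5% and 14.2% of desert peaks in 9.57% of desert length, a density 1.61 times (1.48 to 1.74) and 1.56 times (1.45 to 1.69) that of the remaining desert. Within 1 kb of an lncRNA gene end the density was 2.02 times that elsewhere in both lists (110 and 118 peaks). Pseudogenes held 94 and 126 peaks, at 2.02 times (1.64 to 2.47) and 2.53 times (2.12 to 3.02) the density. Immunoglobulin and T cell receptor segments, the gene parts that lymphocytes rearrange, held only 10 and 12 peaks, in 0.0286% of desert length. Their density was 7.41 times (3.98 to 13.8) and 8.29 times (4.71 to 14.6) that of the remaining desert. Density was thus higher at lncRNA genes, while sharing was not. In lncRNA genes 26.5% of WT and 25.9% of KAT8-cKO peaks were shared, against 29.4% and 27.4% of desert peaks outside them. In pseudogenes 30.9% (22.4 to 40.8) and 21.4% (15.2 to 29.4) were shared, against 28.9% and 27.4% outside them. The median fold in lncRNA genes was 2.93 and 2.78, as over all desert peaks.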

How the data were processed

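H4K16ac was profiled by CUT&Tag in 2 libraries of mouse macrophages, each with 1 peak list. Per the submitters' processing notes, MACS2 2.2.7.1, DiffBind and Bowtie 0.12.8 were used with build mm10, without a stated role. Read totals, duplicate handling, any control library and calling settings are not stated in the sources used here, and depth was seen only through the recovered heights. The deposited lists give per peak a score, a fold over background (a ratio), p and q as −log10 values, and the summit offset, as the authors' peak caller gave them.

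Members and gene lists were chosen with earlier results of these data known. Genes came from RefSeq GRCm38.p6 (21883 protein-coding genes placed), whose gene table used here gives no strand; its promoter table does. Peaks were compared by overlap of at least 1 bp. Shares carry 95% Wilson intervals, densities exact Poisson intervals and ratios of counts Poisson intervals on the log scale. Python 3.11.15, numpy 2.4.6, pandas 2.3.3, scipy 1.17.1 and matplotlib 3.10.9 were used, and overlaps and heights were checked on simulated data. Peaks were named by highest fold (4 in each list), sum of folds of shared pairs (4), q of unshared peaks (3) and nearness to the limits. Deserts were named by size (5), by most (5) and fewest (3) peaks per Mb, and by most peaks within each list of flanking genes (3). A few items chosen by these rules are not reported here. Alternatives changed the distance, the gene types, the limits on q, the overlap and the shifts. No genome sequence was used, so base composition and repeats of the peaks themselves were not analysed here.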

Additional observations from a re-analysis of the deposited data

How the results depend on the processing

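The main values (WT and then KAT8-cKO) were density ratios of 0.226 and 0.257 between deserts and the rest, shared portions of 28.9% and 27.2%, X to autosome ratios of 0.483 and 0.413, portions with a q-value under 0.05 of 42.5% and 47.6%, and a count ratio of 1.07. With deserts starting 50 kb from a gene the density ratios were 0.248 and 0.282, and with 200 kb they were 0.203 and 0.225, with 28.8% of KAT8-cKO peaks shared. With genes of every type the density ratios were 0.176 and 0.186, the shared portions 32.0% and 31.6%, and the X to autosome ratios 0.614 and 0.558. The WT portion under 0.05 there was 44.8% and the count ratio 1.01. The interval of that ratio (0.922 to 1.11), from 937 and 946 peaks, includes both equality and the main value of 1.07. It therefore does not tell whether the higher KAT8-cKO count holds there. Without the upper limit on q the shared portions were 31.0% and 29.2%, and 44.2% and 49.0% had a q-value under 0.05. With q under 0.05 alone, the density ratios were 0.209 and 0.266, the shared portions 44.3% and 39.6%, the WT X to autosome ratio 0.567 and the count ratio 1.20. The strongest 20000 peaks gave 1.23. Requiring overlap of at least 50% of both peaks gave 18.4% and 17.1% shared, and partners with q under 0.05 gave 20.3% and 17.9%. Shifts of 200 kb to 2 Mb met 0.523% and 0.533% of peaks. Leaving out deserts at chromosome ends, or peaks within 10 kb of a stronger one, moved no value beyond its interval; these settings and those of the count ratio were chosen after seeing the data. Where the distance, the gene types, the limits on q or the chromosome ends were changed, deserts stayed sparser than the rest and the X sparser than autosomes. No paired analysis was possible because each group has 1 library and the labels give no replicate numbers, and no library could be left out. The cause of these differences was not tested. Read depth is unknown, and the lists hold no desert peak under 8 and 9 fragments.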
